A study of Schima superba and Cryptocarya concinna with 24 samples.

Results

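Large chaperones, their co-chaperones and the heat stress transcription factors (HSFs) were followed in the leaves of Schima superba and Cryptocarya concinna seedlings, 2 tree species collected in subtropical evergreen forest. Members were the assembled transcripts (unigenes) whose first protein database hit named an Hsp70, an Hsp80 to Hsp83, an Hsp90, Hsp101, a heat shock cognate, endoplasmin, a luminal-binding protein, ClpB, the BAG family, a heat stress or heat shock factor, a chaperonin or DnaJ. Small heat shock proteins were left out. The pattern found 389 of 117867 unigenes, 175 of the 57053 of S. superba and 214 of the 60814 of C. concinna. Of these, 158 and 191 were tested, having reached an FPKM of 1 in 3 or more of the 12 libraries of their species. FPKM is the number of fragments scaled to unigene length and library size.

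Leaf RNA came from seedlings grown in full light, that is 100% of full sunlight, or in low light, under layers of black nylon net passing 30% of it. Mature and young leaves in full and in low light gave 4 groups of 3 libraries per species, 24 libraries in all. The design compares full with low light at each leaf age, and mature with young leaves in each light. Light is given as full minus low, age as mature minus young, and light by age as the light effect in mature minus that in young leaves.

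As background, Hsp70 and Hsp90 are ATP-driven machines that bind unfolded or unstable proteins. DnaJ proteins bring clients to Hsp70, BAG and Fes1-type proteins exchange its nucleotide, and Hop proteins hand clients on to Hsp90. ClpB/Hsp101 pulls proteins out of aggregates, chaperonins fold them inside a cage, and endoplasmin and the luminal-binding protein (BiP) are the Hsp90 and Hsp70 of the endoplasmic reticulum (ER). In plants HsfA1 factors start the heat response, HsfA2 is itself strongly heat-inducible and sustains it, many HsfB factors act as repressors, and HSF-binding proteins hold HSFs back.

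A KEGG entry naming a chaperone or HSF was present for 146 of the 175 S. superba members (83.4%) and 192 of the 214 C. concinna members (89.7%). The DnaJ proteins were the largest family, with 64 and 89 members, followed by Hsp70 with 25 and 42. HSFs numbered 24 and 19, Hsp90 13 and 20, BAG regulators 13 and 3, and ClpB/Hsp101 12 and 9. Chaperonins numbered 9 and 14, helpers of Hsp70 and Hsp90 8 and 7, ER chaperones 5 and 9, and HSF-binding proteins 2 in each species. An ID that starts with CL marks a contig of a cluster of alike sequences (91 and 87 members), between which reads may be split, so the level of such a contig is uncertain. One C. concinna member (1 of 214) had its first hit in a dinoflagellate.

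Members held 0.542 to 1.106% of summed FPKM per library in S. superba and 0.657 to 2.06% in C. concinna. Summed FPKM ran from 769593 to 977277, and steps between low values put relative depth at 0.953 to 1.03 and 0.912 to 1.04 times that of the first library of each species. Young low light replicates 2 and 3 of S. superba were unusually alike (SD of log2 ratios 0.368, against 0.765 to 1.37 in its other pairs of replicates). In C. concinna 59 of the 191 tested members (30.9%, against 14.7% of all unigenes) were highest in young full light replicate 1, and 34 (17.8%, against 15.0%) in mature full light replicate 1. Leaf markers, such as antenna proteins and the small subunit of Rubisco, were present in every library, with sums of 11262 to 71978 FPKM. Because whole leaves were measured, fewer cells of a type and less RNA per cell cannot be told apart.

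In mature leaves of S. superba, 7 of 158 tested members were higher in full light and 1 was lower (4.43% and 0.633%, against 0.255% and 0.6% of all 50970 unigenes tested). Leaf markers moved with light too, with sums of 31347 to 45673 FPKM in full light, against 48707 to 64692 in low light, 5 of 44 lower and 0 higher. Their part in the light results was not tested. The 7 members were HsfA2, a Hop protein, 2 DnaJ proteins of subfamily B and 3 Hsp70 unigenes. The median log2 fold change of the members was 0.12, against -0.09 over all unigenes. Calls were made with limma at an adjusted p under 0.05, and every fold change was taken between values of log2(FPKM + 1), which understates changes of low unigenes.

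HsfA2 (Unigene15877) stood at 18.1, 17.9 and 21.2 FPKM in the mature leaves in full light, against 4.19, 1.83 and 5.28 in low light. The groups did not overlap, and the log2 fold change was 2.15 (SE 0.30, limma adjusted p = 0.0118). In young leaves the same unigene was near 0, at 0.05, 0.16 and 0.16 FPKM in full light, against 0.21, 0 and 0.05 in low light. The call in mature leaves held without any single library but not with a pseudocount of 0.1 (adjusted p = 0.0798).

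The Hop protein (CL5605.Contig3), which bridges Hsp70 and Hsp90, reached 49.4, 67.5 and 102 FPKM in full light, against 23.6, 26.3 and 20.4 in low light (a log2 fold change of 1.54, SE 0.25, limma adjusted p = 0.0209). DnaJ subfamily B member 3 (CL6346.Contig2) was at 64.7, 50.6 and 35.9 FPKM in full light, against 5.23, 6.82 and 16.3 in low light (2.40, SE 0.36, limma adjusted p = 0.0172). DnaJ subfamily B member 4-like (Unigene28238) was at 18.2, 15.8 and 19.3 FPKM in full light, against 6.96, 6.72 and 5.51 in low light. Its fold change of 1.35 (SE 0.17, limma adjusted p = 0.00714) was called whichever single library was left out. With its cluster summed the Hop protein gave 0.92 and was not called (adjusted p = 0.103). Its call also ended without mature low light replicate 1 (adjusted p = 0.0667) or 3, and that of CL6346.Contig2 without mature low light replicate 1 (0.0578).

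An Hsp70 unigene (Unigene34700) had 18, 20.3 and 18.2 FPKM in full light, against 3.33, 3.03 and 9.04 in low light (a log2 fold change of 1.82, SE 0.36, limma adjusted p = 0.0467). The other 2 Hsp70 unigenes, named after their values were seen, were an Hsp70 14-like (Unigene10558, 1.31, adjusted p = 0.033) and a mitochondrial Hsp70 (CL3335.Contig4, 1.03, adjusted p = 0.0484). The second call lay near the threshold. Both ended without any 1 of the young full light replicates, young low light replicate 2 or 3, or mature full light replicate 3. The member that was lower was an Hsp83-like (Unigene17338), at 6.8, 9.83 and 8.74 FPKM in full light, against 17, 17.7 and 19.4 in low light (-1.02, SE 0.20, limma adjusted p = 0.0435). The calls of Unigene34700 and Unigene17338 lay near the threshold and ended when any 1 of 10 and of 11 libraries was left out (highest adjusted p 0.14 and 0.109, both without mature low light replicate 1), and that of Unigene34700 with a pseudocount of 0.1 (0.0605).

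Differences of similar size in abundant chaperones did not pass. Hsp82 (CL148.Contig1) stood at 302, 529.7 and 729 FPKM in full light, against 80.8, 95.4 and 248 in low light (a log2 fold change of 1.97, SE 0.48, limma adjusted p = 0.0888). An Hsp70 (CL1396.Contig3) had 497, 661 and 873 FPKM in full light, against 118, 168 and 457 in low light (1.66, SE 0.45, adjusted p = 0.123). In ClpB1-like (CL3979.Contig2) the low light libraries spread widely, with 136, 229 and 100.8 FPKM in full light, against 3.9, 28.8 and 97.2 in low light (adjusted p = 0.258). With its cluster summed ClpB1-like was called, close to the threshold (1.74, adjusted p = 0.0493).

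The count of 8 members fell to 2 without mature low light replicate 1, and was 4 without mature full light replicate 3, without any 1 of the young full light replicates, or without young low light replicate 2 or 3. It was 5 without mature full light replicate 2. After median-ratio rescaling of the libraries it was 19, with 18 higher and 1 lower (11.4% and 0.633%, against 0.527% and 0.727% of all unigenes), while the median of all unigenes moved to -0.02. Small heat shock proteins, chaperones outside the member list, summed to 1980.2, 2430 and 3493 FPKM in full light, against 307, 298 and 1758 in low light, with 6 of 26 tested higher and 0 lower. Mature low light replicate 3 was the low light library nearest to full light in them, as in ClpB1-like, Hsp82 and CL1396.Contig3.

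**Figure D1:**
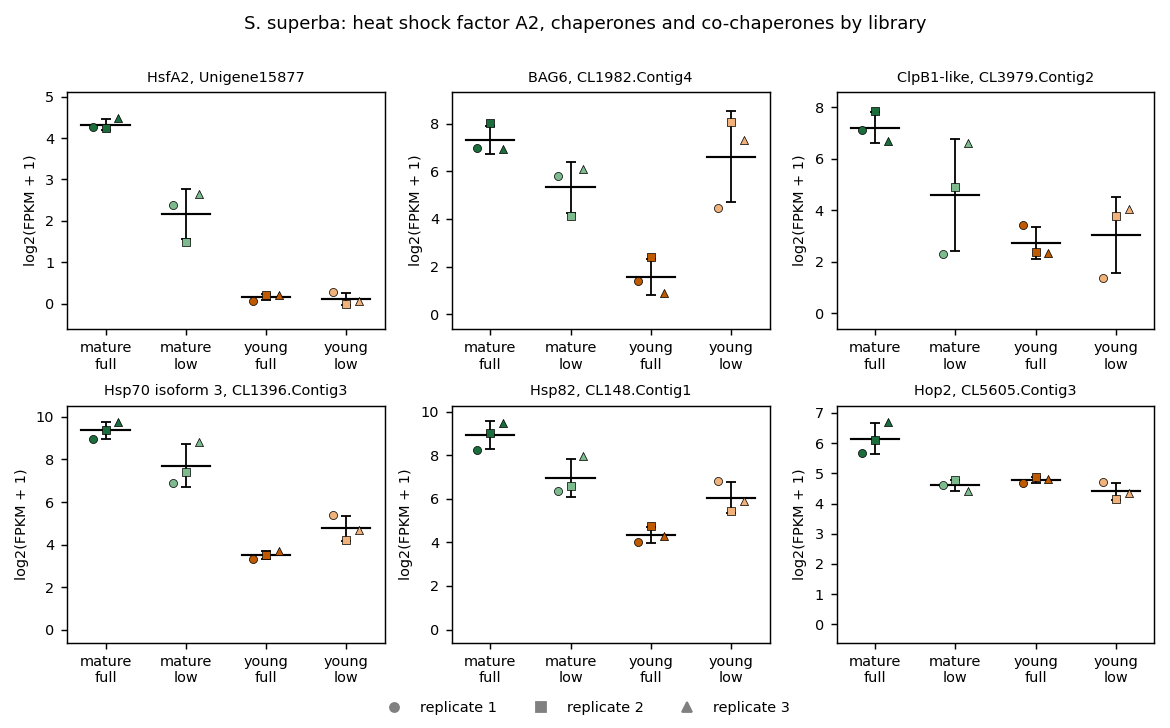
Expression of 6 members in the 12 libraries of S. superba, as log2(FPKM + 1). Points are libraries, and bars give the mean ± SD of 3. HsfA2, the Hsp70 CL1396.Contig3 and Hsp82 are highest in mature leaves in full light, and BAG6 (CL1982.Contig4) is lowest in young leaves in full light.

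In young leaves of S. superba, 8 of 158 tested members were higher and 8 lower in full light (5.06% each, against 3.02% and 2.32% of all unigenes tested). The lower ones were 3 contigs of BAG6, 4 DnaJ proteins and a plastid chaperonin 60. The higher ones were 3 HSFs, 2 contigs of a DnaJ protein, 2 Hsp70 unigenes and an Hsp90. The median over the members was 0.05 and over all unigenes 0.07, and rescaling gave 4 higher and 8 lower (2.53% and 5.06%, against 1.76% and 2.21% of all unigenes). Leaf markers summed to 11262 to 15785 FPKM in full light, against 28530 to 39284 in low light, with 13 of 44 lower and 2 higher, and their part in these results was not tested.

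BAG6 binds calmodulin in Arabidopsis and belongs to the regulators that release Hsp70 from its clients. The contig CL1982.Contig4 was at 1.63, 4.28 and 0.86 FPKM in young leaves in full light, against 21, 270.4 and 156 in low light (a log2 fold change of -5.05, SE 0.83, limma adjusted p = 0.00973). Every full light library lay below every low light library, and the call held without any single library. The contigs CL1982.Contig2 and CL1982.Contig3 gave -3.97 and -4.23 (adjusted p = 0.0201 and 0.0198), and both calls ended without young low light replicate 2 (0.0879 and 0.0925).

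The chaperonin 60 subunit beta 4 (CL7470.Contig1), part of the plastid folding cage, was at 5.06, 3.76 and 2.58 FPKM in full light, against 16.9, 17.1 and 11.6 in low light. This gave -1.77 (SE 0.28, limma adjusted p = 0.00869, and 0.0511 without young low light replicate 2). A DnaJ-domain protein (CL5990.Contig1) was at 1.6, 1.38 and 0.77 FPKM in full light, against 4.49, 5.37 and 3.49 in low light (-1.28, limma adjusted p = 0.0405). Its call also ended without young low light replicate 2. A DnaJ subfamily C member 8-like (CL2442.Contig1) was at 3.6, 2.96 and 1.26 FPKM in full light, against 10.3, 11.9 and 5.97 in low light (-1.54, limma adjusted p = 0.0345, and 0.141 without young low light replicate 2).

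Among the higher members, a DnaJ subfamily C member 2-like contig (CL6390.Contig1), of a type that acts at ribosomes in yeast and animals, was at 142, 173 and 45.3 FPKM in full light, against 3.64, 1.8 and 3.12 in low light. Its log2 fold change of 4.80 (SE 0.50, limma adjusted p = 0.00189) held without any single library. The second contig of the cluster (CL6390.Contig2) was more abundant, at 768, 1595 and 625 FPKM in full light, against 255, 67.3 and 30 in low light. Its 3.49 (SE 0.89, limma adjusted p = 0.0471) lost its call when any 1 of 10 libraries was left out (0.156 without young low light replicate 2), with a pseudocount of 0.1 (0.0747) or after rescaling (0.0609).

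An HsfB4 (Unigene24934) was at 13.4, 15.8 and 5.23 FPKM in young leaves in full light, against 2.05, 1.89 and 3.67 in low light (a log2 fold change of 1.73, SE 0.37, limma adjusted p = 0.0264). In Arabidopsis HsfB4 is known from root tissue patterning. An HSF without a class in its hit (Unigene5558) was at 28.3, 38.7 and 38.3 FPKM in full light, against 13.9, 9.54 and 6.58 in low light (1.75, SE 0.39, adjusted p = 0.0304). Both calls ended without young low light replicate 2 (0.113 and 0.109), that of Unigene24934 with a pseudocount of 0.1 (0.0749) and that of Unigene5558 after rescaling (0.0571).

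The Hsp70 contig CL1396.Contig7, a heat shock cognate, was at 17.9, 22.4 and 12.8 FPKM in full light, against 6.76, 3.6 and 4.17 in low light (log2 fold change 1.68, limma adjusted p = 0.0171, and 0.0828 without young low light replicate 2). The Hsp90 contig CL148.Contig4 was at 329, 386 and 379 FPKM in full light, against 221, 163 and 178 in low light (0.96, adjusted p = 0.0374, and 0.148 without the same library). With the contigs of a cluster summed, neither was called (0.68, adjusted p = 0.194, and 0.54, adjusted p = 0.265), and CL148.Contig4 was not called with a pseudocount of 0.1 (0.0536) or after rescaling (0.0806).

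The count of 16 members fell to 2 without young low light replicate 2, and was 5 or 6 without young low light replicate 3 (6) or without young full light replicate 1 (5), 2 (6) or 3 (6). With young low light replicates 2 and 3 averaged to 1 library, a setting chosen after seeing the data, it was 4. Small heat shock proteins summed to 122, 102 and 81.0 FPKM in young leaves in full light, against 1817, 1181 and 1158 in low light, with 0 of 26 tested higher and 10 lower.

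The light effect was called as different between leaf ages in 7 of 158 members of S. superba. It was higher in mature than in young leaves in 5 and lower in 2 (3.16% and 1.27%, against 0.506% and 1.11% of all unigenes tested). The 5 were HsfA2, an Hsp70, Hsp82 and 2 contigs of BAG6, and the 2 were DnaJ proteins. BAG6 (CL1982.Contig4), lower in full light in young leaves, had 125, 256 and 122 FPKM in mature leaves in full light, against 55.1, 16.3 and 66.6 in low light (log2 fold change 1.98, limma adjusted p = 0.326). The difference between the light effects was 7.03 on the log2 scale (SE 1.18, limma adjusted p = 0.0235), and 6.005 for CL1982.Contig2 (SE 1.13, adjusted p = 0.0323). Neither call held without young low light replicate 2 (0.0664 and 0.0881).

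Hsp82 (CL148.Contig1) had 15.3, 26.1 and 18.7 FPKM in young leaves in full light, against 112, 42.8 and 59.5 in low light (log2 fold change -1.70, limma adjusted p = 0.0639). The light effect in mature leaves exceeded this by 3.67 (SE 0.68, adjusted p = 0.0314). The Hsp70 contig CL1396.Contig3 had 9.04, 10.4 and 12.1 FPKM in young leaves in full light, against 40.9, 17.6 and 24.4 in low light (difference 2.90, SE 0.64, adjusted p = 0.0494). When the contigs of each cluster were summed, the differences were 0.71 (adjusted p = 0.344) and 0.44 (adjusted p = 0.61). ClpB1-like (CL3979.Contig2) was not called as a contig (2.93, adjusted p = 0.288), but its summed cluster was (2.33, adjusted p = 0.0458). HsfA2 gave 2.10 (SE 0.42, limma adjusted p = 0.0385), the DnaJ contig CL6390.Contig1 -4.80 (SE 0.70, 0.0163) and the DnaJ-domain protein Unigene491 -1.67 (SE 0.37, 0.0491). The call of CL6390.Contig1 ended with its cluster summed (-2.04, adjusted p = 0.395) and without young low light replicate 2 (0.0578). HsfA2 in young leaves and CL6390.Contig1 in mature leaves lay near the floor, so each difference largely repeats the light effect at the other age. Adding 0.1 in place of 1 before taking logs ended the calls of CL6390.Contig1 (0.0862), HsfA2 (0.251), CL1396.Contig3 (0.0583) and Unigene491 (0.059), and rescaling also that of Unigene491 (0.0536).

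After rescaling 7 were higher and 1 lower (4.43% and 0.633%, against 0.731% and 0.693% of all unigenes). The count of 7 changed with single libraries. Without young low light replicate 2 it was 0, 1 was left without young low light replicate 3 or either of young full light replicates 1 and 3, and without mature low light replicate 1 it was 2. It was 3 without mature full light replicate 2 or 3 or young full light replicate 2, 4 without young low light replicate 1, and 13 without mature low light replicate 3. The calls of HsfA2, CL1396.Contig3 and Unigene491 ended when any 1 of 10, 11 and 11 libraries was left out (highest adjusted p 0.097, 0.105 and 0.136), and that of Hsp82 with any 1 of 8 (0.0726).

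Between mature and young leaves of S. superba, 43 members were higher and 55 lower in full light, and 22 were higher and 53 lower in low light. In full light these were 27.2% and 34.8% of the members tested, against 9.67% and 36.3% of all unigenes tested. In low light they were 13.9% and 33.5% of the members, against 9.19% and 29.5% of all unigenes. The median log2 fold change of the members was -0.31 in full and -0.20 in low light, against -0.55 and -0.39 over all unigenes. Median-ratio rescaling moved the median of all unigenes to -0.07 and -0.05. It gave 60 members higher and 26 lower in full light (38.0% and 16.5%, against 16.7% and 22.1% of all unigenes). In low light it gave 42 and 32 (26.6% and 20.3%, against 14.6% and 19.1%), so the share of lower members in low light was near that of all unigenes. Of the calls, 18 higher ones (of 43 and 22) and 39 lower ones (of 55 and 53) were shared by both lights. That is 41.9% and 81.8% of the higher calls and 70.9% and 73.6% of the lower calls, against 60.6% and 63.8%, and 65.0% and 80.0%, over all unigenes. The lights use separate libraries but share the spread of each unigene in the fit, so their calls are not independent.

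**Figure D2:**
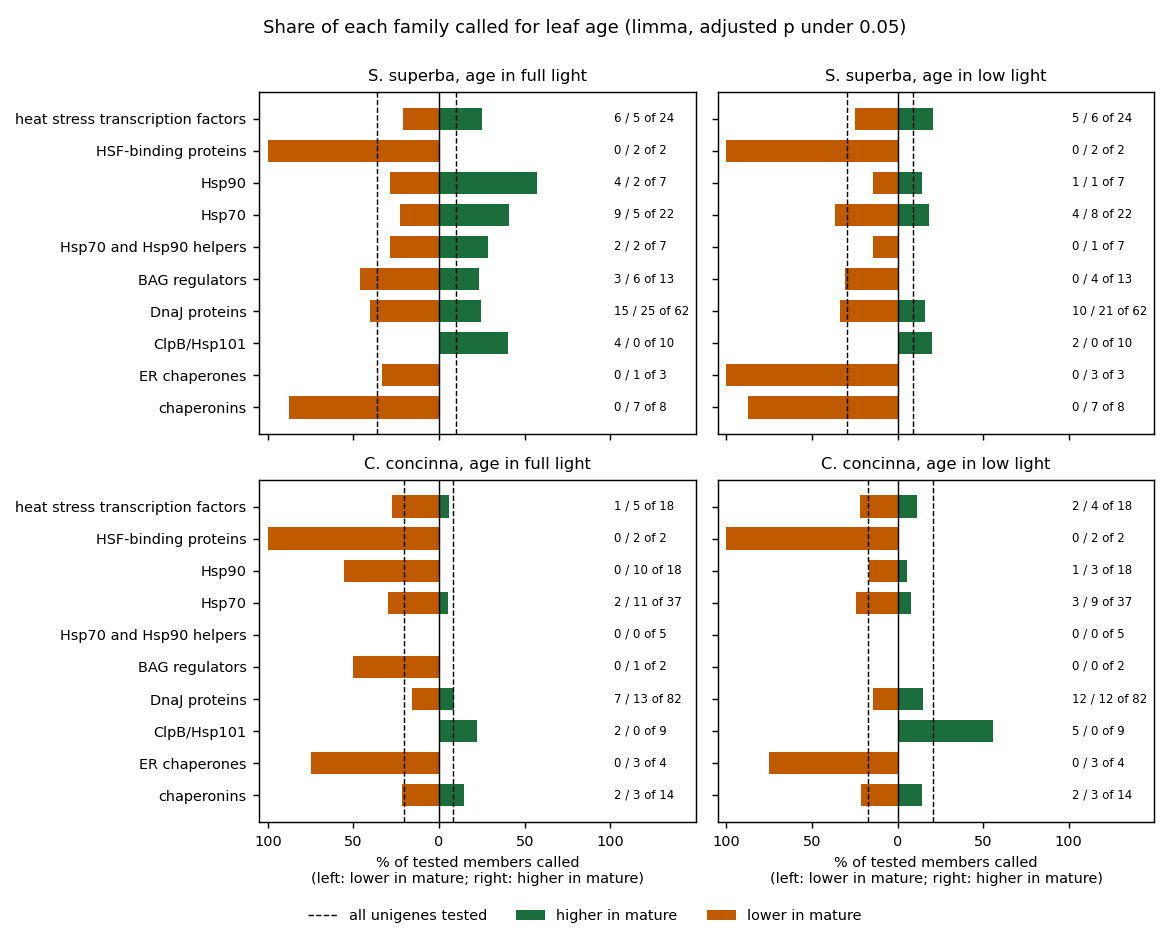
Share of the tested members of each family called higher or lower in mature than in young leaves, in % of the members tested, by species and light. Dashed lines give the share of all unigenes, and the numbers beside the bars count members higher and lower of those tested.

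Markers of growing tissue (cyclins, kinesins and expansins) summed to between 561 and 824 FPKM in mature and between 2028 and 2308 in young leaves of S. superba, with 107 of 137 lower in mature leaves in full light. In C. concinna the sums were 514 to 659 in mature and 2850 to 4522 in young leaves, with 87 and 76 of 134 lower. Leaf markers were called higher in mature leaves in 22 of 44 (3 lower) in full and 16 (0 lower) in low light in S. superba, and in 24 of 61 (1 lower) and 29 (13 lower) in C. concinna. None of the marker unigenes was at 0 in all libraries of its species. Their part in the age results below was not tested.

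HSFs of S. superba were called in both directions with leaf age, with 6 higher and 5 lower of 24 in full light and 5 higher and 6 lower in low light (8 and 3, and 9 and 3, after rescaling). Of all unigenes tested, 9.67% were higher and 36.3% lower in full light, with 9.19% and 29.5% in low light. HsfA2 was higher in mature leaves in both lights, by 4.16 in full light (SE 0.30, limma adjusted p = 1.18e-06) and 2.06 in low light (SE 0.30, adjusted p = 0.00027). An HsfA2c-like (Unigene29450) moved less, at 7.45, 5.25 and 6.29 FPKM in mature leaves in full light, compared with 2.47, 1.25 and 1.82 in young leaves (1.38, limma adjusted p = 0.000801).

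HsfB2b factors, repressors of heat-inducible HSFs in Arabidopsis, were also higher in mature leaves. Unigene4240 stood at 18.7, 17.1 and 20.6 FPKM in mature leaves in full light, compared with 0.71, 0.77 and 1.27 in young leaves (log2 fold change 3.38, SE 0.26, limma adjusted p = 1.89e-06). The low light values were 7.52, 8.82 and 12.3 FPKM in mature leaves, against 1.89, 0.97 and 0.77 in young leaves (2.26, SE 0.26, adjusted p = 5.57e-05). Unigene15876 gave 2.83 and 1.88 in the same lights, and Unigene29060 gave 1.26 and 1.59, each called by limma in both.

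HsfB4 (Unigene24934) went the other way, at 1.55, 1.16 and 2.14 FPKM in mature leaves in full light, compared with 13.4, 15.8 and 5.23 in young leaves (log2 fold change -2.15, SE 0.37, limma adjusted p = 0.000665). The low light values were 0.14, 0.14 and 0.41 FPKM in mature leaves, against 2.05, 1.89 and 3.67 in young leaves (-1.50, adjusted p = 0.00837). Contigs of the HsfA1 cluster differed among themselves. With the cluster summed it was lower in mature leaves in full light (-0.74, adjusted p = 0.00967) and in low light (-0.83, adjusted p = 0.00617). The medians of all unigenes with clusters summed were -0.55 and -0.39. CL265.Contig8, annotated as HsfA1d, was at 8.79, 6.15 and 8.51 FPKM in mature leaves in full light, compared with 6.2, 7.13 and 6.28 in young leaves (0.21, SE 0.18, adjusted p = 0.375). An HsfA1 contig of the same cluster (CL265.Contig3) was lower in mature leaves in full light (-1.31, adjusted p = 0.00298, and 0.052 after rescaling), and a second HsfA1d contig (CL265.Contig6), named after its values were seen, gave -1.78 and -1.23 in full and low light.

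**Figure D3:**
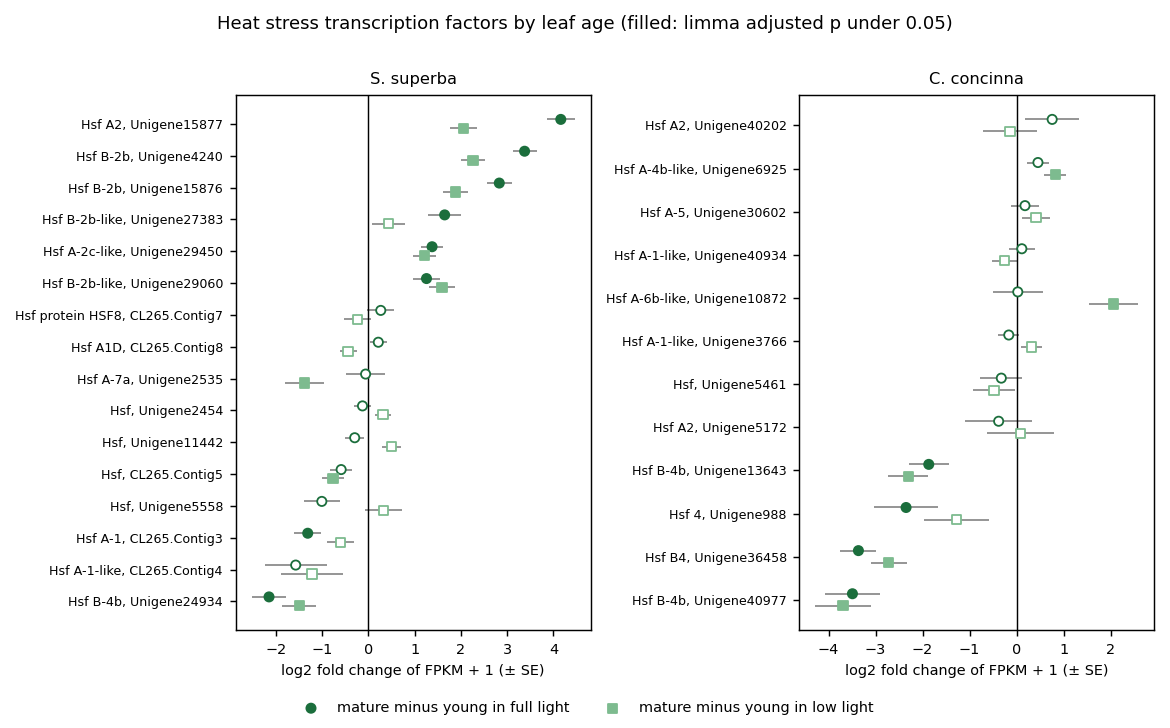
Log2 fold change of each HSF between mature and young leaves, with its SE, in full and low light, for the 16 HSFs of S. superba and the 12 of C. concinna with a group mean of at least 5 FPKM. Filled points were called by limma at an adjusted p under 0.05. HsfB4 unigenes lie below 0 in both species, while HsfA2 and HsfB2b unigenes of S. superba lie above it.

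The HSF-binding proteins of S. superba were lower in mature leaves on the deposited scale. Unigene8789 was at 35.1, 37 and 35.4 FPKM in mature leaves in full light, compared with 59.2, 45.4 and 90.5 in young leaves (log2 fold change -0.79, SE 0.25, limma adjusted p = 0.0233), and gave -1.64 in low light (adjusted p = 0.000389). Unigene3653 gave -1.06 and -1.26 (adjusted p = 0.0189 and 0.00967). After rescaling, Unigene8789 in low light remained as the 1 call of 4 (in full light -0.12, adjusted p = 0.741). Without young full light replicate 3 the full light call of Unigene8789 ended (0.0936), and without mature full light replicate 3 that of Unigene3653 (0.0734).

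The Hsp90 and Hsp70 families of S. superba included members that were far higher in mature leaves. Hsp82 (CL148.Contig1) differed by 4.57 in full light (SE 0.48, limma adjusted p = 1.66e-05) and by 0.91 in low light, which did not pass (adjusted p = 0.159). The Hsp70 CL1396.Contig3 differed by 5.85 in full light (SE 0.45, adjusted p = 1.9e-06) and by 2.95 in low light (adjusted p = 0.000385). With its cluster summed the differences were 1.14 (adjusted p = 0.00752) and 0.70, which was not called (0.0812). Contigs of the same clusters did not move alike. Hsp90-2 (CL148.Contig4) was at 249.7, 155 and 189 FPKM in mature leaves in full light, compared with 329, 386 and 379 in young leaves (-0.90, SE 0.23, limma adjusted p = 0.00742). After rescaling it was not called (-0.22, adjusted p = 0.534). Its cluster as a whole, which also holds CL148.Contig1 and CL148.Contig5, was higher (0.96, adjusted p = 0.0115).

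CL148.Contig5, a second Hsp90-2, had 317, 418 and 435 FPKM in mature leaves in full light, compared with 124, 149 and 152 in young leaves (log2 fold change 1.45, limma adjusted p = 0.000332). The most abundant Hsp70, CL1396.Contig5, had 536, 678 and 794 FPKM in mature leaves in full light, compared with 321, 352 and 330.1 in young leaves (0.98, SE 0.22, adjusted p = 0.0031). The cognate contig CL1396.Contig7 was lower, at 2.97, 0.89 and 2.3 FPKM in mature leaves in full light, compared with 17.9, 22.4 and 12.8 in young leaves (-2.65, SE 0.32, adjusted p = 5.12e-05). In all, 9 of 22 Hsp70 members tested were higher and 5 lower in full light, with 4 and 8 in low light (13 and 2, and 7 and 3, after rescaling). Of 7 Hsp90 members tested, 4 were higher and 2 lower in full light, with 1 and 1 in low light (5 and 0, and 4 and 1, after rescaling). All unigenes tested gave 9.67% higher and 36.3% lower in full light, with 9.19% and 29.5% in low light.

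Of the helpers, the Hop protein CL5605.Contig3 was higher in mature leaves in full light, with 49.4, 67.5 and 102 FPKM, against 24.5, 28.1 and 26.8 in young leaves (log2 fold change 1.37, SE 0.25, limma adjusted p = 0.0008). In low light mature leaves had 23.6, 26.3 and 20.4 FPKM, against 24.9, 16.9 and 19.5 in young leaves, and the groups overlapped (0.20, SE 0.25, adjusted p = 0.557). Of 7 helpers tested, 2 were higher and 2 lower in full light, with 0 and 1 in low light (3 and 1, and 2 and 1, after rescaling). Of 5 prefoldins, chaperones of newly made proteins outside the member list, 2 were lower in full light and 1 in low light, and 0 higher. The shares of all unigenes tested were 9.67% higher and 36.3% lower in full light, with 9.19% and 29.5% in low light.

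BAG regulators were called in both directions in full light. BAG6 (CL1982.Contig4) was higher in mature leaves in full light by 5.75 (SE 0.83, limma adjusted p = 0.000185) and not in low light, where mature leaves had 55.1, 16.3 and 66.6 FPKM, against 21, 270.4 and 156 in young leaves (-1.28, adjusted p = 0.253). BAG7 (CL8018.Contig2), an ER protein in Arabidopsis, was at 3.95, 13.2 and 4.76 FPKM in mature leaves in full light, compared with 123, 88.5 and 83.3 in young leaves (-3.72, SE 0.36, adjusted p = 9.21e-06). It gave -2.09 in low light (adjusted p = 0.000851). BAG3-like (Unigene29464) gave -3.68 and -2.60 (adjusted p = 4.5e-05 and 0.0008). Of 13 BAG members, 3 were higher and 6 lower in full light, with 0 and 4 in low light (3 and 5, and 0 and 3, after rescaling). Over all unigenes tested 9.67% were higher and 36.3% lower in full light, with 9.19% and 29.5% in low light.

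DnaJ proteins held members at both ends. A DnaJ subfamily B member 13 (CL1225.Contig1) stood at 139, 153 and 162 FPKM in mature leaves in full light, compared with 1.32, 1.94 and 1.68 in young leaves (log2 fold change 5.85, SE 0.36, limma adjusted p = 4.28e-07). The low light values were 38.8, 26.1 and 93.7 FPKM in mature leaves, against 3.51, 2.91 and 2.36 in young leaves (3.58, adjusted p = 2.1e-05). A chloroplast DnaJ 20-like (CL1440.Contig1) had 305, 325 and 460.3 FPKM in mature leaves in full light, compared with 80.8, 56.3 and 51.4 in young leaves (2.52, SE 0.23, adjusted p = 6.57e-06), and gave 3.21 in low light.

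The DnaJ-domain protein CL5990.Contig1 gave 4.998 in full light and 3.61 in low light (limma adjusted p = 5e-07 and 7.77e-06). At the other end, CL6390.Contig1 was at 1.15, 0.65 and 0 FPKM in mature leaves in full light, compared with 142, 173 and 45.3 in young leaves (-6.10, SE 0.50, adjusted p = 2.85e-06, and -3.55 with its cluster summed). Unigene491 was at 0.61, 1.16 and 0.88 FPKM in mature leaves in full light, compared with 24.7, 19.5 and 25.2 in young leaves (-3.68, SE 0.26, adjusted p = 1.06e-06). In all 15 of 62 DnaJ members were higher and 25 lower in full light, with 10 and 21 in low light. Over all unigenes tested 9.67% were higher and 36.3% lower in full light, with 9.19% and 29.5% in low light. The family median was -0.42 in full and -0.12 in low light, but 0.18 and 0.30 after rescaling, when 24 were higher and 10 lower in full light, with 18 and 10 in low light.

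The disaggregases were called in 1 direction, with 4 of 10 ClpB/Hsp101 members higher and 0 lower in full light, with 2 and 0 in low light (the same counts of 11 after rescaling). ClpB1-like (CL3979.Contig2), the cytosolic Hsp101, was at 136, 229 and 100.8 FPKM in mature leaves in full light, compared with 9.74, 4.2 and 4.11 in young leaves (log2 fold change 4.48, SE 0.96, limma adjusted p = 0.00266). In low light it was at 3.9, 28.8 and 97.2 FPKM in mature leaves, against 1.55, 12.6 and 15.4 in young leaves, with overlap (adjusted p = 0.23). With its cluster summed the low light difference was called (1.55, adjusted p = 0.0059). ClpB3 (Unigene33504), the chloroplast form, was at 44, 98.5 and 58.3 FPKM in mature leaves in full light, compared with 6.62, 10.4 and 8.93 in young leaves (2.75, SE 0.29, adjusted p = 1.74e-05), and gave 2.38 in low light (adjusted p = 8.33e-05). Of 26 small heat shock proteins, 19 were higher and 1 lower in full light, with 3 and 6 in low light. Of 10 unigenes on a list of heat-inducible companions of HSFs, such as galactinol synthase, 6 were higher in full and 5 in low light and 0 lower. Organelle proteases, which degrade what chaperones cannot refold, were higher in 9 of 41 and lower in 4 in full light, and in 8 and 5 in low light. For the ClpB/Hsp101 members and these lists alike, the shares of all unigenes tested were 9.67% higher and 36.3% lower in full light. In low light they were 9.19% and 29.5%.

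Calls among chaperonins and ER chaperones were all lower in mature leaves. Of 8 chaperonins tested, 7 were lower in mature leaves in each light and 0 higher (4 and 7 lower after rescaling). Among all unigenes tested 36.3% were lower in full light and 29.5% in low light (22.1% and 19.1% after rescaling). The eta subunit of the cytosolic chaperonin (Unigene34147) was at 17.2, 26.4 and 26.2 FPKM in mature leaves in full light, compared with 61.7, 61.6 and 74.8 in young leaves (log2 fold change -1.48, SE 0.18, limma adjusted p = 5.38e-05). The 10 kDa chaperonin (Unigene7410), the lid of the folding cage, gave -1.07 and -2.07 (adjusted p = 0.00759 and 0.000151), and in full light was not called after rescaling (-0.42, adjusted p = 0.301).

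Endoplasmin (CL1571.Contig1) was at 32, 42.2 and 39.8 FPKM in mature leaves in full light, compared with 264, 234 and 197 in young leaves (log2 fold change -2.58, SE 0.28, limma adjusted p = 2.33e-05). In low light it was at 38.8, 22.2 and 55.4 FPKM in mature leaves, against 342, 269 and 283 in young leaves (-2.99, adjusted p = 1.39e-05). BiP (Unigene33181) gave -1.17 in full light (adjusted p = 0.0587) and -3.56 in low light (adjusted p = 0.000133). Of 3 ER chaperones tested, 1 was lower in full light and 3 in low light, against 36.3% and 29.5% of all unigenes tested. Genes of ER folding and the unfolded protein response outside the members, such as calnexin, calreticulin and protein disulfide isomerase, were lower in mature leaves in 22 of 31 unigenes in full light and 21 in low light, with 1 higher in each.

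No member was called for light in C. concinna. In young leaves 0 of 191 members passed in limma in either direction (lowest adjusted p 0.149), and 0.0245% and 0.00566% of all 53005 unigenes tested were called. At an unadjusted p under 0.05, 27 members were higher and 7 lower (14.1% and 3.66%), near the 14.6% and 3.26% of all unigenes. In mature leaves 0 of 191 passed in limma (lowest adjusted p 0.313), against 0.0302% and 0.0264% of all unigenes, and 8 and 7 did unadjusted (4.19% and 3.66%, against 2.57% and 4.02%). For light by age 0 of 191 passed in limma (lowest adjusted p 0.383), against 0.00189% and 0.00377%, and 5 and 17 did unadjusted (2.62% and 8.9%, against 1.66% and 9.14%). The members' median log2 fold changes were 0.39, 0.05 and -0.30, against 0.34, -0.05 and -0.39 over all unigenes (0.05, 0 and -0.02 after rescaling, with no member called).

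In HsfA2, BAG6 and ClpB1, replicate 1 lay far above the other full light libraries of its leaf age in the values below. HsfA2 (Unigene40202) stood at 202, 35.7 and 41.6 FPKM in mature leaves in full light, against 26.9, 14.5 and 39.6 in low light (a log2 fold change of 1.39, SE 0.57, limma adjusted p = 0.687). BAG6 (Unigene3947) was at 689.5, 99.8 and 24.3 FPKM in mature leaves in full light, against 54.6, 23.6 and 204 in low light. In young leaves it was at 601, 132 and 64.6 FPKM in full light, against 25.6, 72.7 and 93.4 in low light. The groups overlapped at both ages.

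ClpB1 (CL1774.Contig2) was at 152, 26.7 and 21.6 FPKM in young leaves in full light, against 8.33, 13.3 and 20.7 in low light (a log2 fold change of 1.68, SE 0.78, limma adjusted p = 0.281). Small heat shock proteins summed to 41071, 2537 and 864 FPKM in mature leaves in full light, against 1549, 1042 and 2898 in low light, with mature full light replicate 1 highest there too. Without the full light libraries numbered 1 of both ages, a setting chosen after seeing the data, no member was called for light either (0 in each comparison). The SE of the HsfA2 light effect in mature leaves was 0.57, against 0.30 in S. superba.

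**Figure D4:**
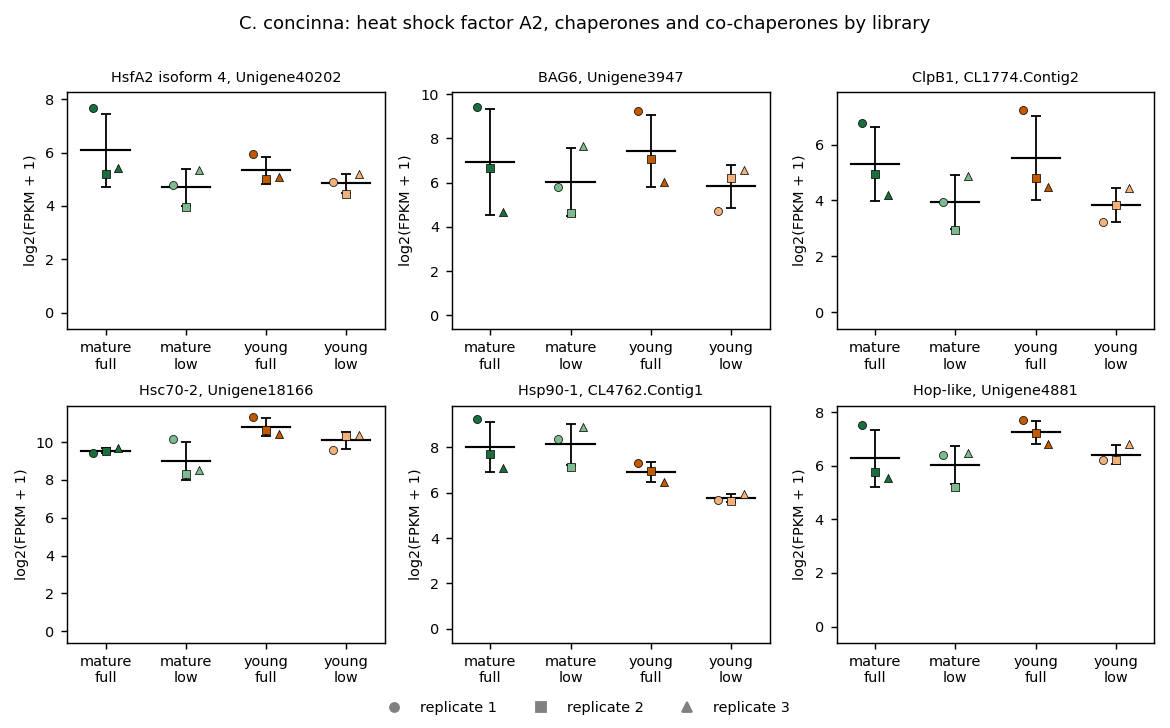
Expression of 6 members in the 12 libraries of C. concinna, as log2(FPKM + 1). Points are libraries, and bars give the mean ± SD of 3. HsfA2, BAG6 and ClpB1 each have a full light library far above its replicates.

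Members of C. concinna were called for leaf age in both directions. In full light the shares lay near those of all unigenes, and in low light fewer members were higher. In full light 14 were higher and 48 lower in mature than in young leaves (7.33% and 25.1%, against 8.19% and 20.2% of all unigenes tested), and in low light 25 and 36 (13.1% and 18.8%, against 20.7% and 17.1%). The members' median log2 fold change was -0.56 in full and -0.24 in low light, against -0.17 and 0.27 over all unigenes. After rescaling, which put the median of all unigenes at 0.09 and 0.14, 22 were higher and 31 lower in full light (11.5% and 16.1%, against 13.8% and 14.7% of all unigenes), with 21 and 44 in low light (10.9% and 22.9%, against 20.6% and 20.3%). The higher calls numbered 14 in full light, but 8 when either mature full light replicate 1 or young full light replicate 3 was left out, and 9 when young full light replicate 2 was. In low light they numbered 25, but 16 without mature low light replicate 3. Both lights shared 11 of the higher calls (78.6% of 14 and 44.0% of 25, against 81.8% and 32.3% over all unigenes) and 33 of the lower calls (68.8% of 48 and 91.7% of 36, against 67.5% and 79.7%).

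The largest called changes among the HSFs were in class B4. An HsfB4b (Unigene40977) was at 8.96, 68 and 54.3 FPKM in mature leaves in full light, compared with 500.5, 303 and 355 in young leaves (log2 fold change -3.49, SE 0.59, limma adjusted p = 0.000866). In low light it was at 20, 41 and 16.7 FPKM in mature leaves, against 375, 264 and 339 in young leaves (-3.69, SE 0.59, adjusted p = 0.000486). A second HsfB4 (Unigene36458) was at 0, 0.45 and 0.75 FPKM in mature leaves in full light, compared with 15.8, 13.3 and 10.6 in young leaves (-3.37, adjusted p = 5.53e-05), and another (Unigene13643) gave -1.87 and -2.31 in full and low light (adjusted p = 0.00569 and 0.00129).

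HsfA2 (Unigene40202) gave 0.75 in full and -0.14 in low light (limma adjusted p = 0.348 and 0.86), and in full light mature leaves, at 202, 35.7 and 41.6 FPKM, overlapped with young leaves, at 60, 31.3 and 32.5. HsfA1 (Unigene40934) was at 17.2, 17.4 and 17.6 FPKM in mature leaves in full light, compared with 20.4, 14.2 and 14.3 in young leaves (0.11, SE 0.28, adjusted p = 0.803). An HsfA6b-like (Unigene10872) was higher in mature leaves in low light, at 16.7, 3.32 and 4 FPKM, against 0.96, 0.36 and 0.99 in young leaves (2.06, SE 0.53, adjusted p = 0.0096). Of 18 HSFs, 1 was higher and 5 lower in full light, with 2 and 4 in low light (2 and 5, and 2 and 4, after rescaling). Over all unigenes tested 8.19% were higher and 20.2% lower in full light, with 20.7% and 17.1% in low light.

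Both HSF-binding proteins were lower in mature leaves in each light, and were called after rescaling too. Unigene22314 was at 14.8, 21.7 and 20.5 FPKM in mature leaves in full light, compared with 69.1, 91.3 and 79.8 in young leaves (log2 fold change -2.03, SE 0.32, limma adjusted p = 0.00058), and gave -2.49 in low light (adjusted p = 0.000107). Unigene6237 was at 4.95, 7.57 and 8.23 FPKM in mature leaves in full light, compared with 29.8, 27.9 and 42.5 in young leaves (-2.12, SE 0.36, adjusted p = 0.000857), and gave -3.41 in low light (adjusted p = 2.28e-05).

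Hsp90 members of C. concinna were lower in mature leaves in full light, with 10 of 18 lower and 0 higher, but with 3 lower and 1 higher after rescaling. In low light 3 were lower and 1 higher. Of all unigenes tested, 20.2% were lower and 8.19% higher in full light (14.7% and 13.8% after rescaling), with 17.1% and 20.7% in low light. An Hsp80-like (CL965.Contig1) was at 313, 203 and 214 FPKM in mature leaves in full light, compared with 764, 531 and 519.7 in young leaves (log2 fold change -1.31, SE 0.32, limma adjusted p = 0.00901). Hsp90-1 (CL4762.Contig1) was the 1 higher member in low light, at 327, 139 and 470.2 FPKM in mature leaves, against 50.4, 49 and 60.7 in young leaves (2.37, SE 0.51, adjusted p = 0.00367).

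The most abundant Hsp70 (Unigene18166) was at 676, 743 and 838 FPKM in mature leaves in full light, compared with 2567, 1599 and 1367 in young leaves, without overlap but just short of the threshold (-1.24, SE 0.44, limma adjusted p = 0.0505). Of 37 Hsp70 members, 2 were higher and 11 lower in full light, with 3 and 9 in low light (2 and 7, and 3 and 14, after rescaling). All unigenes tested gave 8.19% higher and 20.2% lower in full light, with 20.7% and 17.1% in low light. The Hop-like protein (Unigene4881) was at 182, 54.3 and 45.5 FPKM in mature leaves in full light, compared with 207, 149 and 113 in young leaves, with overlap (-0.97, SE 0.49, adjusted p = 0.157). No helper was called in limma in either light (0 of 5). Of 12 further unigenes named as helpers, prefoldins among them, 7 were lower in full light and 8 in low light, and 0 higher. BAG2-like (Unigene6700) was lower in full light (-1.91, adjusted p = 0.0297), but not after rescaling (0.0949) or without mature full light replicate 2 (0.0972).

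Among DnaJ proteins, 7 of 82 were higher and 13 lower in full light, with 12 and 12 in low light (11 and 9, and 8 and 15, after rescaling). In full light these lay near or below the shares of all unigenes tested (8.19% higher and 20.2% lower). In low light they lay below them (20.7% and 17.1%). A DnaJ-domain protein (Unigene14881) was at 44.2, 50.8 and 42 FPKM in mature leaves in full light, compared with 5.97, 6.72 and 9.84 in young leaves (log2 fold change 2.48, SE 0.33, limma adjusted p = 0.000179), and gave 2.05 in low light. Another (Unigene17604) gave 1.97 and 2.63 in full and low light. A chloroplast DnaJ 20-like (Unigene25303) was lower, at 0.32, 0.79 and 0 FPKM in mature leaves in low light, against 11.8, 9.07 and 7.96 in young leaves (-2.98, SE 0.41, adjusted p = 0.000171). Its S. superba counterpart by name, CL1440.Contig1, was higher in mature leaves.

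ClpB members were again called in 1 direction, with 2 of 9 higher and 0 lower in full light, with 5 and 0 in low light (4 and 0, and 5 and 0, after rescaling). ClpB3 (Unigene5247) was at 83.6, 33.2 and 23.9 FPKM in mature leaves in full light, compared with 15.6, 6.19 and 6.83 in young leaves (log2 fold change 2.09, SE 0.52, limma adjusted p = 0.0097). In low light it was at 47.2, 21.7 and 45.5 FPKM in mature leaves, against 2.02, 1.35 and 5.27 in young leaves (3.39, SE 0.52, adjusted p = 0.00038). A second ClpB3 (CL6627.Contig1) gave 1.72 and 2.58 (adjusted p = 0.00572 and 0.000341). ClpB1 (CL1774.Contig2), at 109, 29.6 and 17.4 FPKM in mature leaves in full light, compared with 152, 26.7 and 21.6 in young leaves, overlapped (-0.21, SE 0.78, adjusted p = 0.87). Of 20 small heat shock proteins, 0 were higher and 1 lower in full light, with 1 and 2 in low light. The heat-inducible companions gave 3 and 2 of 10 higher in full and low light and 0 lower, and the organelle proteases 9 higher and 1 lower of 48 in full light, with 22 and 1 in low light. For the ClpB members and these lists alike, the shares of all unigenes tested were 8.19% higher and 20.2% lower in full light. In low light they were 20.7% and 17.1%.

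Endoplasmin (CL4974.Contig2) was at 82.7, 44.3 and 36.4 FPKM in mature leaves in full light, compared with 341, 313 and 241 in young leaves (log2 fold change -2.51, SE 0.30, limma adjusted p = 8.58e-05), and gave -2.40 in low light (adjusted p = 8.97e-05). BiP (Unigene13951) was at 28.5, 11.6 and 4.69 FPKM in mature leaves in full light, compared with 128, 70.6 and 89.2 in young leaves (-2.87, SE 0.54, adjusted p = 0.00176). It gave -1.87 in low light (adjusted p = 0.017, and 0.0712 without young low light replicate 3). Of 4 ER chaperones tested, 3 were lower in each light and 0 higher. Other ER folding unigenes were lower in 13 of 18 in full light and 11 in low light. Of all unigenes tested, 20.2% were lower in full light and 17.1% in low light.

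Chaperonins of C. concinna were mixed, with 2 of 14 higher and 3 lower in each light. The most abundant, a chloroplast chaperonin 20 (Unigene12327), a lid protein of the plastid cage, was at 689, 326 and 171 FPKM in mature leaves in full light, compared with 371, 297 and 248 in young leaves, with overlap (0.16, SE 0.39, limma adjusted p = 0.793). A second 20 kDa form (Unigene38411) was lower in low light, at 112, 106 and 128 FPKM in mature leaves, against 293, 340.0 and 295 in young leaves (-1.42, SE 0.38, adjusted p = 0.0113).

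**Figure D5:**
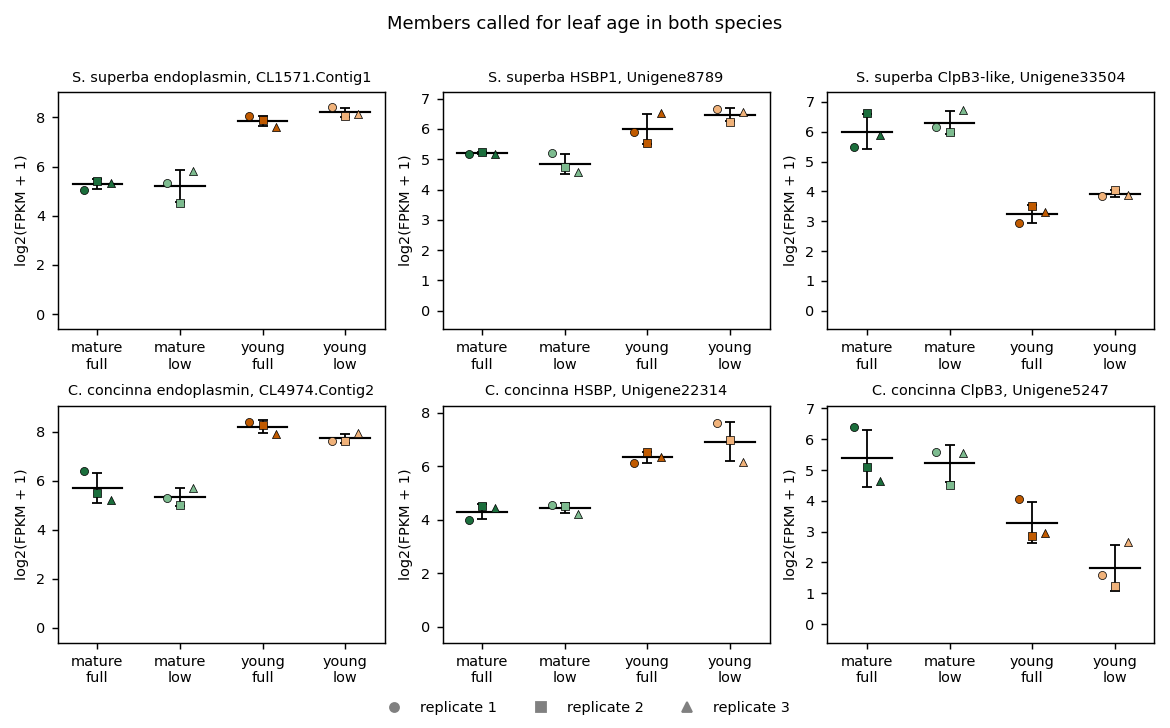
Expression of endoplasmin, an HSF-binding protein and ClpB3 in the libraries of each species, as log2(FPKM + 1). Points are libraries, and bars give the mean ± SD of 3. Endoplasmin and the HSF-binding protein lie lower and ClpB3 higher in mature than in young leaves of both species.

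Set side by side, the species gave the same direction for endoplasmin (-2.58 and -2.99 in S. superba, -2.51 and -2.40 in C. concinna, in full and low light), for HsfB4 (-2.15 and -1.50, and -3.49 and -3.69) and for ClpB3 (2.75 and 2.38, and 2.09 and 3.39). HsfA2 was called for age in S. superba (4.16 and 2.06) and not in C. concinna (0.75 and -0.14). The difference between the species was not tested, since RNA kits, assemblies and tables differed. Unigenes were matched between species by hit name alone.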

How the data were processed

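RNA of flash-frozen leaves was extracted with kits that differed between the species (Sangon columns in S. superba, Magen HiPure in C. concinna), per the labels' protocols, and the species were therefore fitted separately. The deposited tables gave FPKM for each unigene and library, for which the submitters' processing notes name RSEM 1.2.12. How reads were filtered, assembled and aligned was not given in the sources used here. Each unigene was named by its first protein database hit in the authors' table. No reference came with the files, so no sequences or coordinates are given.

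Since FPKM are not counts, values entered limma 3.58.1 (R 4.3.3) as log2(FPKM + 1). Unigenes with FPKM of 1 or more in 3 or more of 12 libraries were fitted with 1 mean per group, moderated with a trend, and tested on both sides, with Benjamini-Hochberg adjustment over all unigenes tested and a threshold of 0.05. Every adjusted p given here comes from limma, and n is 3 libraries in each group. The labels do not say that replicates were separate plants, so the p-values speak only of the spread among these samples, which may be technical. Absolute depth was not given, so no counting interval was computed and values near 0 carry an unknown counting error. The fit was checked on simulated data.

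The members and all lists were chosen with earlier results of these data known. Members were placed in 10 families by words of their hits. HSF-binding proteins and helpers were set apart after their names were read, and guanine nucleotide exchange factors, taken in by the helper words, were left out of the helpers that are not members. Lists are sets of descriptions and can hold look-alikes. Members to name were, per comparison and direction, the up to 5 largest called changes whose higher group averaged 5 FPKM or more, the 2 most abundant of each family, and the HSFs and light by age calls that reach 5 FPKM in a group. The rule gave 54 members in S. superba and 38 in C. concinna, of which the text uses 65, with 3 others named after their values were seen. Alternatives were median-ratio rescaling, a pseudocount of 0.1, a minimum mean of 5 FPKM, no filter, the replicate number as a block, summed clusters, limma without trend, each library left out, and both low light libraries numbered 1 of S. superba left out. Leaving out the full light libraries numbered 1 of C. concinna and averaging young low light replicates 2 and 3 of S. superba were added after seeing the data. Tables were made with numpy 2.4.6 and pandas 2.3.3 in Python 3.11.15, and figures with matplotlib 3.10.9.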

Additional observations from a re-analysis of the deposited data

Results flagged for a closer look

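The light effect of 7 members of S. superba was called as different between leaf ages by limma. The contrast was the effect in mature minus that in young leaves. The difference was 7.03 for the BAG6 contig CL1982.Contig4 and 6.005 for the BAG6 contig CL1982.Contig2. It was 3.67 for Hsp82 (CL148.Contig1), 2.90 for the Hsp70 contig CL1396.Contig3 and 2.10 for HsfA2 (Unigene15877). It was -4.80 for the DnaJ contig CL6390.Contig1 and -1.67 for the DnaJ-domain protein Unigene491. All values are on the log2 scale, and the report gives how each call changed with single libraries left out. Without young low light replicate 2 the count was 0. With clusters summed Hsp82, CL1396.Contig3 and CL6390.Contig1 were not called (limma adjusted p = 0.344, 0.61 and 0.395). HsfA2 in young leaves and CL6390.Contig1 in mature leaves lay near the floor, so each difference largely repeats the light effect at the other age. Groups held 3 libraries, so single libraries were not tested as outliers.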

How the results depend on the processing

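The number of S. superba members called for light depended on the setting. In young leaves it was 16, but 10 with a pseudocount of 0.1, 10 with clusters summed, 10 without both low light libraries numbered 1 and 4 with young low light replicates 2 and 3 averaged. In mature leaves it was 8, but 19 after rescaling, 2 without both low light libraries numbered 1 and 4 with the averaging. For light by age it was 7, but 3 with a pseudocount of 0.1, 3 without both low light libraries numbered 1 and 1 with the averaging. With 1 library left out the counts ran from 2 to 16, from 2 to 10 and from 0 to 13. The cause was not tested. With 1 library left out, the age counts ran over 88 to 100 (98 with all libraries) in full and 60 to 77 (75) in low light in S. superba, and 44 to 63 (62) and 46 to 63 (61) in C. concinna, where the higher calls ran over 8 to 14 (14) and 16 to 26 (25). No member of C. concinna was called for light under any setting run. Replicate numbers were not used to pair the samples in the main fit, since the labels tie them to no plant or day. No pair of groups had all 3 correlations of same-numbered deviations above 0.1, but young and mature low light of S. superba came near (0.324, 0.104 and 0.0999). These correlations cannot exclude that same-numbered libraries shared a plant or day. As a block, the replicate number gave 3 calls for light by age in S. superba and ended 10 of the 115 calls of named members. Calls of named members also ended in 36 of 115 for at least 1 library left out (20 of 24 for light, 16 of 91 for age), in 15 after rescaling, 11 without trend, 10 with a pseudocount of 0.1 and 6 with no filter. A single direction turned round: CL148.Contig4 gave -0.90 for age in full light, but its cluster summed gave 0.96. Absolute depth, not given, limits what low unigenes can show.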
